A study of Mus musculus with 2 samples.

Results

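Cells that make and use peroxide and superoxide also carry enzymes that remove them. The 10 genes described here encode such enzymes and were taken by symbol from the 32285 genes listed in both count matrices: Prdx1, Prdx2, Prdx3, Prdx5, Prdx6, Gpx1, Gpx3, Gpx4, Sod1 and Cat. All 10 were found, each once, and all 10 had enough counts to be compared. They were measured by droplet single-cell RNA sequencing of late promyelocytes from mice with leukemia driven by the PLZF/RARA fusion, in a series that asked what retinoic acid does to these cells and what part EZH2 takes in resistance. Both groups were PLZF/RARA transformed progenitors from leukemic bone marrow, sorted as Cd45.2+, C-Kit+, Gr1+, FcγR+ and Cd34-. One group received 0.8 to 1 mg retinoic acid, also with 10% DMSO, and the other the vehicle, corn oil with 10% DMSO. Both were given by intraperitoneal injection, in cohorts of 3 to 5 mice treated for 7 days. Each group is 1 library, and the labels used here do not say how many mice gave cells to it, whether the leukemia is 1 clone, or how old the mice were. No difference between the libraries therefore has a replicate check, no p-value is given, and differences between mice, sorts and preparations are part of every ratio.

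As background, superoxide dismutases turn superoxide into hydrogen peroxide, and catalase, the glutathione peroxidases and the peroxiredoxins then reduce the peroxide. Peroxiredoxins use a reactive cysteine that is mostly recharged by thioredoxin, while the glutathione peroxidases described here carry selenocysteine and draw on glutathione. In neutrophils the NADPH oxidase makes superoxide on purpose to kill microbes, and its subunits are made as granulocytes mature. The secondary and tertiary granules, filled with proteins such as CAMP, NGP, LTF and LCN2, are also built during that maturation. The share of a cell's RNA that encodes granule proteins is therefore used here to order cells. Whether it follows maturation at every stage was not tested.

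Each captured RNA molecule is counted once by its molecular barcode (UMI), and CPM is a gene's UMIs per 1000000 UMIs of its library. After filtering, the vehicle library held 5476 cells and 99107718 UMIs and the retinoic acid library 7140 cells and 110088247 UMIs, with medians of 16750 and 14604 UMIs per cell. Of the barcodes kept, 11 occur in both libraries. Of the 7 markers of the labelled cell type, Ctsg was at 6444 and 5979 CPM in the vehicle and retinoic acid library. Mpo had 30857 and 55 counts, so that this classic promyelocyte gene was nearly absent with retinoic acid. Elane was at 62.8 and 7663 CPM, Prtn3 at 246 and 2819 CPM and Ms4a3 at 850 and 2087 CPM. Fcnb was at 0.293 and 18.6 CPM and Prss57 at 377 and 315 CPM, and all 7 summed to 8292 and 18882 CPM. Progenitor markers summed to 345 and 191 CPM. Among them Cd34, for which the cells were sorted as negative, was at 53.8 and 0.118 CPM in RNA, and Kit at 19.3 and 16.7 CPM. Maturing neutrophil markers summed to 1587.5 CPM with vehicle and 61498 CPM with retinoic acid, so the libraries differed widely in these genes. Of that list Camp, Ngp, Ltf, Lcn2 and Mmp8 are also among the granule genes used below. Mast or basophil markers summed to 739 and 66.4 CPM, led in the vehicle by Cpa3, and eosinophil markers to 105 and 27.9 CPM. T or NK cell markers summed to 1285 and 575 CPM, nearly all from Nkg7, and monocyte or macrophage markers to 80.9 and 9.67 CPM. Erythroid markers, listed because red cell precursors are rich in Prdx2 and Cat, summed to 4.22 and 0.808 CPM with Car1 at 0 in both libraries. Intervals below are 95% intervals and cover counting error only.

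In the vehicle library the members ranked, from the highest CPM, Gpx1, Prdx5, Prdx6, Gpx4, Prdx1, Prdx2, Prdx3, Sod1, Cat and Gpx3, with Prdx6 and Gpx4 inside each other's counting intervals. In the retinoic acid library the order was Gpx1, Prdx5, Gpx4, Prdx6, Prdx2, Prdx1, Prdx3, Gpx3, Cat and Sod1, with overlapping intervals for Prdx2 and Prdx1 and for Cat and Sod1. A count stands for 1 molecule captured at its 3′ end, so these levels need no scaling by length, but capture can still differ between genes. Between the libraries, Gpx3 and Prdx5 were at least 2-fold higher with retinoic acid and Sod1 at least 2-fold lower, which is 3 of 10 members. Over the 5548 genes that reached 20 CPM in 1 library or both, 8.07% passed that limit (3.03% higher, 5.05% lower). At a limit of 1.5-fold 4 members passed, Prdx1 being the fourth, beside 18.3% of genes (8.15% higher, 10.1% lower). The median log2 ratio of the 10 members was −0.07, beside 0.01 over all genes compared. TMM scaling, which discounts a few very abundant genes, adds 0.08 to every log2 ratio and puts the members' median at 0.01, so no direction is read from that median.

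**Figure D1:**
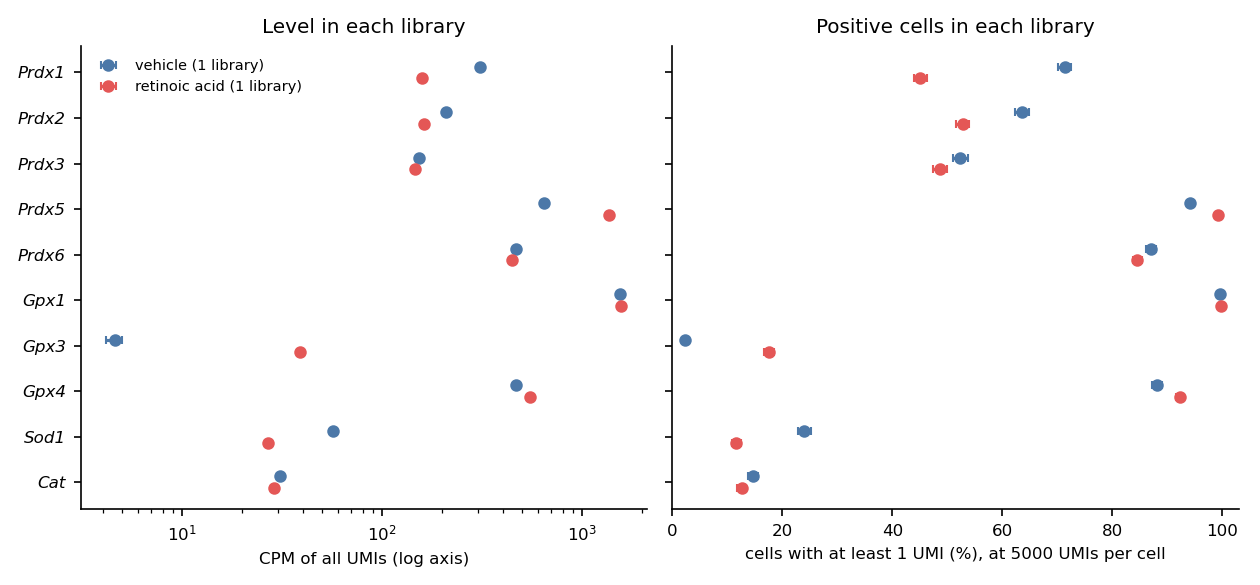
Left, CPM of each of the 10 genes in the vehicle (blue) and retinoic acid (red) library on a log axis, with exact 95% Poisson intervals that are mostly smaller than the points. Right, percent of cells with at least 1 UMI after every cell was thinned to 5000 UMIs, with exact 95% binomial intervals. Gpx3 and Prdx5 lie higher and Prdx1, Prdx2 and Sod1 lower with retinoic acid, while Gpx1 is nearly level.

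Among the peroxiredoxins, Prdx5 stood out. It encodes a peroxiredoxin found in mitochondria, peroxisomes and cytosol (ENSMUSG00000024953, GRCm38 chromosome 19, 6906697 to 6910106, minus strand). Its level was 647.5 CPM (642.5 to 652.6) with vehicle and 1366 CPM (1359 to 1373) with retinoic acid. That is 2.11-fold higher, a log2 ratio of 1.08 (1.06 to 1.09), and lies at the 97.4 percentile of the ratios of all genes compared. With every cell thinned to 5000 UMIs, 94.2% of vehicle and 99.3% of retinoic acid cells had a Prdx5 UMI. At 3000 UMIs these shares were 83.2% and 97.2%.

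Prdx1, which encodes the most studied cytosolic peroxiredoxin and is a textbook target of the stress factor NRF2, went the other way. Vehicle cells had 308 CPM (305 to 312) and retinoic acid cells 158.7 CPM (156.4 to 161.1), 1.94-fold lower and just short of the 2-fold limit (log2 ratio −0.96, −0.98 to −0.93). The percent of cells with a Prdx1 UMI was 71.3 in the vehicle and 45.0 with retinoic acid at 5000 UMIs per cell, a difference of −26.2 percentage points (−27.9 to −24.5), and 90.8 and 71.1 without thinning. Prdx2, the other main cytosolic 2-cysteine peroxiredoxin, had 209.6 CPM with vehicle and 161.7 CPM with retinoic acid, a log2 ratio of −0.37 (−0.40 to −0.35). Prdx3, the peroxiredoxin of the mitochondrial matrix, was at 152 and 145.2 CPM. Prdx6, which has 1 active cysteine and also phospholipase activity, was at 469 and 446 CPM. The log2 ratios of Prdx3 and Prdx6 were both −0.07 and change sign with TMM scaling, to 0.01 each, so neither gene is called higher or lower. Over the same libraries the mitochondrially encoded genes took 2.10% of the vehicle and 1.32% of the retinoic acid UMIs, and their part in the Prdx3 value was not tested.

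The glutathione peroxidases differed among themselves as well. Gpx3 encodes the secreted plasma glutathione peroxidase (ENSMUSG00000018339, chromosome 11, 54902453 to 54910377, plus strand) and had 455 counts in the vehicle and 4292 counts in the retinoic acid library. These are 4.59 CPM (4.18 to 5.03) and 38.99 CPM (37.8 to 40.2), an 8.48-fold difference and a log2 ratio of 3.08 (2.95 to 3.23), above 99.4% of all genes compared. At 5000 UMIs per cell, 2.33% (1.94 to 2.77) of vehicle and 17.5% (16.6 to 18.4) of retinoic acid cells had a Gpx3 UMI, and without thinning 7.54% and 38.9%. RNA free in the suspension was not modelled, and no cell class of the sort is known to lack the gene, so the low vehicle share is not read as a class of Gpx3 cells. Gpx1, the abundant cytosolic enzyme, was at 1541 CPM (1534 to 1549) and 1562 CPM (1555 to 1570), and over 99% of cells of either library had a UMI of it at 5000 UMIs per cell. Gpx4, which reduces lipid peroxides in membranes and guards against ferroptosis, was at 466.7 CPM (462.5 to 471.0) and 550.0 CPM (545.6 to 554.4), a log2 ratio of 0.24 (0.22 to 0.25).

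Sod1 and Cat were low in both libraries. Sod1 encodes the copper and zinc superoxide dismutase of the cytosol (ENSMUSG00000022982, chromosome 16, 90220754 to 90226329, plus strand) and had 56.7 CPM (55.3 to 58.2) with vehicle and 26.8 CPM (25.8 to 27.8) with retinoic acid. It was 2.12-fold lower, a log2 ratio of −1.08 (−1.15 to −1.02) that TMM scaling brings to −1.001, and 23.99% of vehicle but 11.6% of retinoic acid cells had a UMI at 5000 UMIs per cell (58.9% and 29.3% without thinning). Cat, the peroxisomal catalase, was nearly level at 30.7 CPM (29.6 to 31.8) and 28.8 CPM (27.8 to 29.8). Its log2 ratio was −0.09 (−0.17 to −0.02), and −0.01 with TMM scaling. Prdx5, Prdx2 and Sod1 overlap genes of the opposite strand in GENCODE M21, and the sources used here do not say whether strand was used in counting. The partners were Trmt112 (325 and 260 CPM), Rnaseh2a (71.7 and 64.8 CPM), Junb (34.6 and 23.8 CPM) and Scaf4 (18.8 and 15.5 CPM). Each partner was counted as a gene of its own, and the part of overlapping reads in these values was not tested.

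Since Prdx1 is a textbook NRF2 target, the members' promoters were searched for the letters NRF2 binds, and the stretches that hold them are shown. The letters TGACNNNGC, the core of the antioxidant response element to which NRF2 binds, were searched on both strands (GCNNNGTCA on the other) in 300 bases of the RefSeq promoter table, from 250 before to 50 after each start site, for GRCm38.p6. Of the members, 9 had an entry, with 12 start sites in all, and Prdx1 and Sod1 held the core. Of 32851 promoters of that length, 12.4% held it. Below are 90 bases upstream of the start site (not always next to it) of each of those genes and, for contrast, of Prdx5, in which these letters did not occur; capitals mark the core and each is written 5′ to 3′ on the gene's strand.
Prdx1 (chr4:116685425-116685514, plus strand): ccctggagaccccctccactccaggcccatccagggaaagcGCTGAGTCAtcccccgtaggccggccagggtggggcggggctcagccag
Sod1 (chr16:90220664-90220753, plus strand): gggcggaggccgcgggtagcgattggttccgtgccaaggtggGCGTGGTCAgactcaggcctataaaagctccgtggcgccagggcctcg
Prdx5 (chr19:6910107-6910196, minus strand): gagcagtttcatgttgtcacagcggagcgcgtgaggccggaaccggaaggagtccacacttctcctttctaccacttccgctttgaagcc
The Prdx1 match also contains TGAGTCA, the letters of an AP-1 site. The Prdx1 core begins 133 bases and the Sod1 core 56 bases before the RefSeq start site. A match of letters is a description and shows neither binding nor a cause, and 2 genes are too few to set against the share of all promoters.

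The members were then followed along the granule gene share, which is how much of a cell's UMI count, in percent, fell in 11 genes of secondary and tertiary granules, measured after thinning each cell to 5000 UMIs. The median share was 0.08% in vehicle and 2.14% in retinoic acid cells. The 6659 retinoic acid cells with that depth were split by share into quartiles of 1664 or 1665 cells, whose median shares were 0.50%, 1.34%, 3.72% and 12.2%. Values along the share are CPM of the UMIs outside the 11 genes, so that granule RNA does not dilute the others. The cells of the highest quartile were shallower, with a median of 10754 UMIs against 18139 in the lowest, and 37.4% were called G1 against 14.8%.

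Between the ends, 3 members differed at least 2-fold, comparing the highest with the lowest quartile: Prdx5 upward and Prdx1 and Sod1 downward, which is 3 of 10 beside 10.2% of 5635 genes compared (5.25% higher, 4.99% lower). At 1.5-fold 6 did, beside 29.5% of genes (11.1% higher, 18.4% lower). Prdx5 was at 932 CPM, 1204 CPM, 1507 CPM and 2462 CPM in ascending order of share, higher at each step, with a log2 ratio of 1.40 (1.38 to 1.42) between the ends. Gpx4 was also higher at each step, at 471 CPM, 517 CPM, 580 CPM and 821 CPM, a log2 ratio of 0.80 (0.77 to 0.83). These were the only members higher at every step, and both were higher within cells called G1, S or G2/M alone, with log2 ratios of 1.52, 1.27 and 1.20 for Prdx5 and 0.97, 0.65 and 0.72 for Gpx4. The partner Trmt112 on the other strand of Prdx5 was at 296 CPM in the lowest and 203 CPM in the highest quartile.

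Prdx1, Prdx2, Prdx3, Sod1 and Cat, 5 of the 10, were lower at each step. Prdx1 was at 216.2 CPM, 176.6 CPM, 147.1 CPM and 81.8 CPM, a log2 ratio of −1.40 (−1.49 to −1.32), at the 1.08 percentile of the genes compared. Sod1 was at 37.8 CPM, 28.5 CPM, 23.2 CPM and 14.9 CPM, a log2 ratio of −1.34 (−1.55 to −1.15). Prdx2 was at 199.9 CPM in the lowest and 117.9 CPM in the highest quartile, Prdx3 at 164.4 and 120.0 CPM, and Cat at 34.6 and 22.4 CPM, with log2 ratios of −0.76, −0.45 and −0.63. The median of all genes compared was −0.18, and 3645 of these 5635 genes were lower in the highest quartile on this scale. The other 1990 were higher, and how many of all genes were lower or higher at each step was not counted. Among cells called G1, where the contrast was strongest, the log2 ratios were −2.11 for Prdx1, −2.64 for Sod1 and −1.26 for Prdx2; among cells called G2/M they were −1.02, −0.78 and −0.66.

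**Figure D2:**
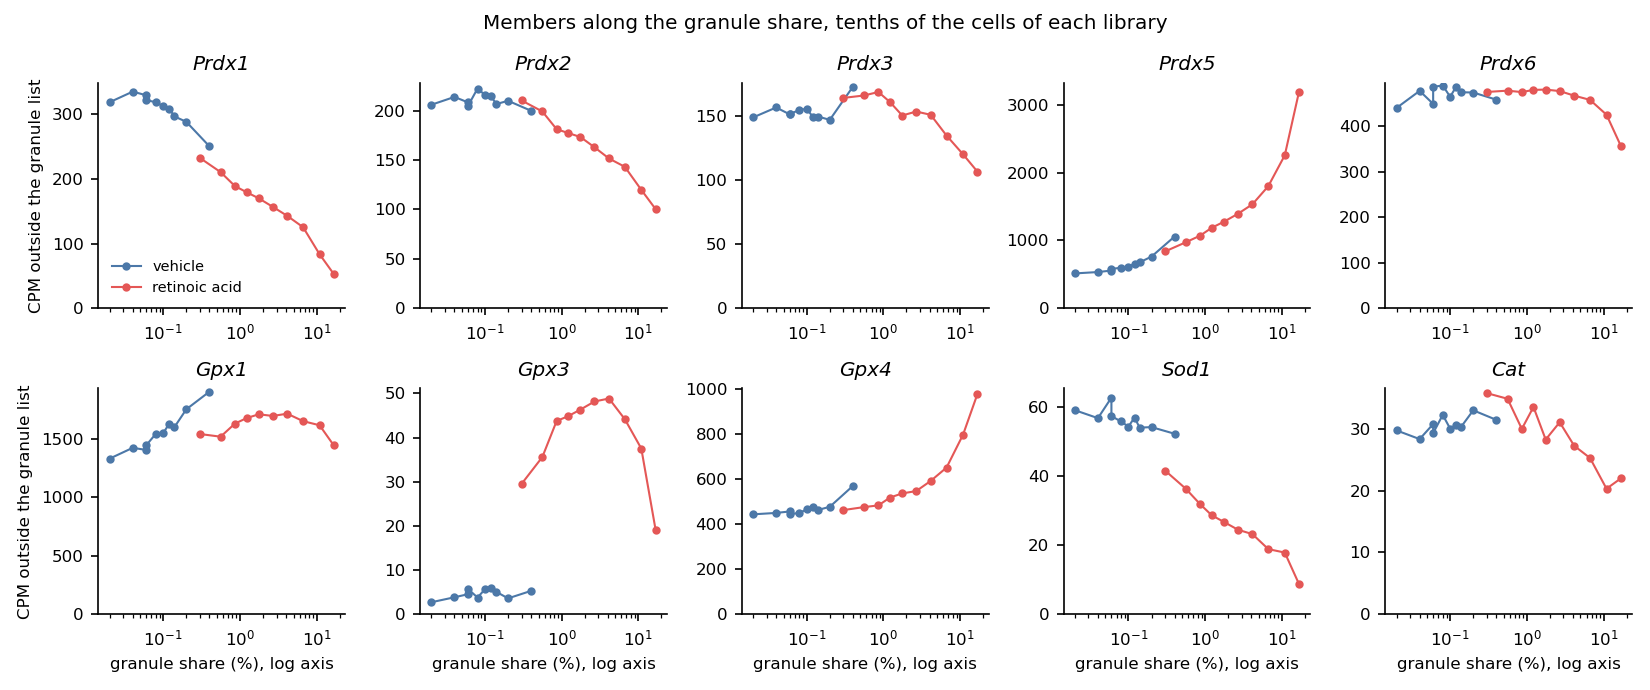
CPM of the UMIs outside the granule list (vertical axes, from 0) against the median granule share of each decile of the cells (log axis), for the vehicle (blue) and retinoic acid (red) library, 1 panel per gene. In retinoic acid cells Prdx5 goes from 838 CPM in the lowest to 3194 CPM in the highest decile and Prdx1 from 232 to 52.9 CPM, while Gpx3 is highest in between, at 48.8 CPM.

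Gpx1, Prdx6 and Gpx3 took other courses. Gpx1 showed no steady direction, at 1550 CPM, 1675 CPM, 1689 CPM and 1575 CPM, and the sign of its end-to-end log2 ratio of 0.02 changed under 5 alternatives. Prdx6 was at 476 CPM, 481 CPM and 472 CPM in the first 3 quartiles and 409 CPM in the highest. Gpx3 was highest in the middle, at 34.7 CPM, 45.3 CPM, 47.3 CPM and 34.1 CPM, and in deciles of the cells it stood at 29.5 CPM in the lowest, 48.8 CPM in the seventh and 19.1 CPM in the highest. Its end-to-end log2 ratio of −0.02 differed by phase, with −0.94 among cells called G1, 0.07 in S and 0.35 in G2/M. Eosinophil markers, summed, were at 66.6 CPM in the lowest quartile and at 2.97 to 3.72 CPM in the others, and their part in the Gpx3 course was not tested.

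The percent of cells with a UMI gave a like picture at 5000 UMIs per cell. Prdx1 was found in 59.3% of the lowest and 24.4% of the highest quartile, Prdx2 in 62.3% and 37.0%, and Sod1 in 15.4% and 5.95%. Prdx5 was found in 98.2% of the lowest quartile and in 100% of the 1664 cells of the highest. Gpx4 was found in 88.5% and 96.2%. Since granule RNA takes up part of the 5000 UMIs, the shares were also taken at 4000 UMIs outside the 11 genes, a setting chosen after seeing the data. There Prdx1 was at 54.5% and 22.7%, Sod1 at 13.8% and 3.31%, and Gpx4 at 82.5% and 95.2%.

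**Figure D3:**
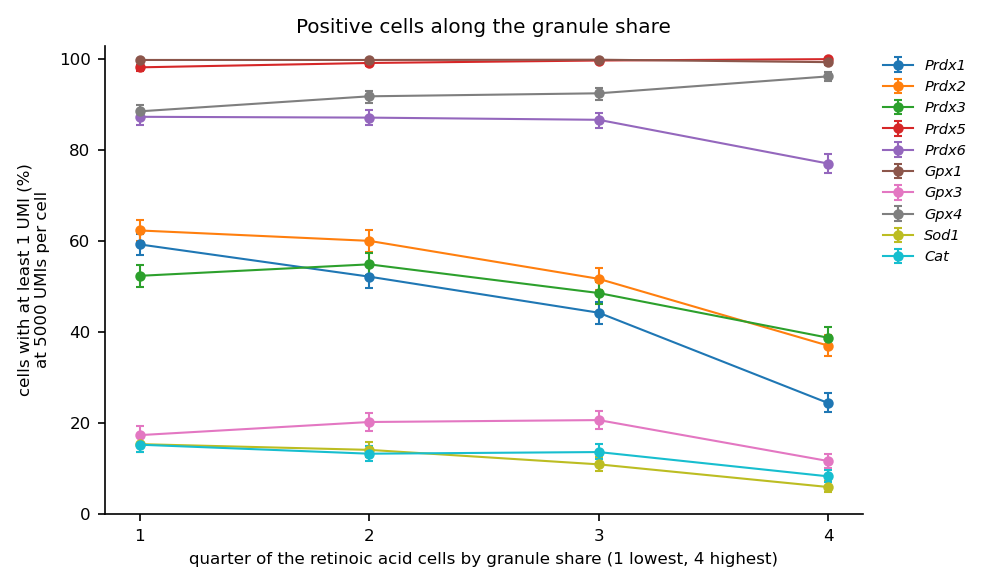
Percent of retinoic acid cells with at least 1 UMI of each gene at 5000 UMIs per cell (vertical axis) in quartiles of the cells by granule share (horizontal axis, 1 lowest to 4 highest), with exact 95% binomial intervals. Prdx1 drops from 59.3% to 24.4%, Gpx4 goes from 88.5% to 96.2%, and Gpx1 and Prdx5 stay near 100%.

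Vehicle cells span a much narrower range, and in their quartiles none of the 9 members with at least 20 CPM differed 2-fold between the highest and the lowest, beside 0.560% of 5360 such genes (0.541% higher, 0.0187% lower). Gpx3, under that level, was at 3.52 CPM in the lowest and 4.53 CPM in the highest. Prdx5, Gpx4, Prdx1 and Sod1 had the direction seen in retinoic acid cells. Prdx6 had the other, with a log2 ratio of 0.041 (0.002 to 0.079), where it was −0.22 in retinoic acid cells. Cat, with a log2 ratio of 0.13 (−0.02 to 0.28), was within counting error. Prdx5 was at 528 CPM in the lowest and 849 CPM in the highest vehicle quartile, Gpx4 at 445 and 506 CPM, and Prdx1 at 329.9 and 274.3 CPM. Sod1 was at 59.7 and 54.3 CPM. Gpx1 differed here, at 1375 CPM, 1480 CPM, 1594 CPM and 1767 CPM, higher at each step. Prdx2, with a log2 ratio of −0.05 (−0.11 to 0.00), and Prdx3, with 0.03 (−0.04 to 0.10), were within counting error in vehicle quartiles. A share of 0.04% to 0.22%, the medians of these quartiles, is a handful of the 5000 UMIs, so vehicle cells are ordered with large counting error.

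The libraries were also set side by side at like granule shares, and whether cells of like share were alike in maturation was not tested. At 0.1 to 0.5% there were 2397 vehicle and 797 retinoic acid cells, with median shares of 0.14% and 0.32%, so shares within the range still differed. Gpx3 alone was at least 2-fold different there, 1 of 10 members beside 5.51% of 5605 genes (1.5% higher, 4.01% lower), at 5.19 CPM in vehicle and 30.3 CPM in retinoic acid cells, a log2 ratio of 2.55 (2.31 to 2.78). Prdx5 was at 700.6 and 861.2 CPM, a log2 ratio of 0.30 (0.27 to 0.33) where it was 1.08 over all cells. Prdx1 was at 297 and 223 CPM, −0.41 (−0.47 to −0.36), and Sod1 at 55.1 and 39.5 CPM, −0.48 (−0.61 to −0.35). Both kept their direction at smaller size.

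At 0.5 to 2%, with 135 vehicle and 2364 retinoic acid cells, Prdx5 was at 1139 CPM (1093 to 1187) and 1125 CPM (1115 to 1135), which overlap, and its log2 ratio was −0.02 (−0.08 to 0.04). Gpx1 was at 2079 and 1630 CPM, lower with retinoic acid by a log2 ratio of −0.35 (−0.40 to −0.31), although it was level over all cells. Prdx1 was at 248 and 189 CPM, a log2 ratio of −0.39 (−0.52 to −0.26), and Sod1 at 52.05 and 31.4 CPM, −0.74 (−1.02 to −0.43). Gpx3, with 11 vehicle counts, was at 5.40 and 43.0 CPM, the only member past 2-fold, beside 7.37% of 5660 genes (2.37% higher, 5.00% lower). At 2 to 8% the vehicle held 51 cells, and Gpx3, with 2 vehicle counts, was again the only member past 2-fold, beside 10.0% of 5823 genes (3.04% higher, 6.99% lower), at 2.72 and 47.3 CPM and a log2 ratio of 3.80 (2.26 to 7.17). Gpx4 was there at 800 CPM in vehicle and 586 CPM in retinoic acid cells, a log2 ratio of −0.45 (−0.57 to −0.33), the reverse of its order over all cells. Phase still differed within the ranges: 52.5%, 62.2% and 64.7% of the vehicle cells and 13.9%, 16.1% and 16.4% of the retinoic acid cells were called G1, and its part in these values was not tested.

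**Figure D4:**
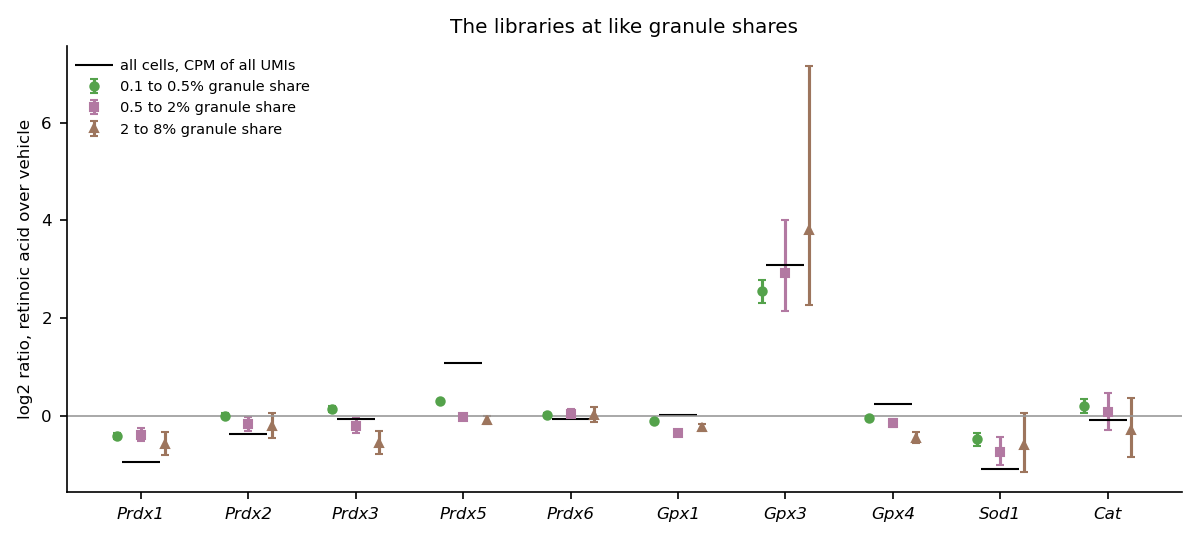
Log2 ratio of retinoic acid over vehicle (vertical axis) for each gene in cells of 0.1 to 0.5%, 0.5 to 2% and 2 to 8% granule share, with exact 95% counting intervals, beside the ratio over all cells (black bars). The ranges use CPM outside the granule list and the black bars CPM of all UMIs. Prdx5 goes from 1.08 over all cells (1.13 outside the granule list) to between 0.30 and −0.09 at like shares, while Gpx3 stays above 2 in each range.

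Cell cycle phases differed between the libraries, with 49.3% of vehicle and 21.2% of retinoic acid cells called G1. Within each phase the contrasts between the libraries kept their direction for Prdx5, Prdx1, Gpx3 and Sod1. The log2 ratios in G1, S and G2/M were 1.15, 1.26 and 1.25 for Prdx5, −1.02, −1.10 and −1.09 for Prdx1, and 3.43, 2.73 and 3.01 for Gpx3. For Sod1 they were −1.55, −1.15 and −0.96. With phases weighted to the vehicle library's shares, Prdx1 passed the 2-fold limit, at −1.06.

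Vehicle cells also differ in Cpa3, a mast cell protease gene. Of 5282 vehicle cells, 2238 had no Cpa3 UMI and 1891 had 3 or more at 5000 UMIs, and none of the 9 members with at least 20 CPM in either class differed 2-fold between them, beside 1.83% of 5410 such genes (0.795% higher, 1.04% lower). Gpx3, which lies under that level, was at 5.63 CPM (4.94 to 6.37) without and 2.73 CPM (2.19 to 3.36) with Cpa3, a log2 ratio of −1.04 (−1.41 to −0.69). The other 9 members had log2 ratios between −0.17 for Prdx6 and 0.08 for Sod1. Of the cells with 3 or more Cpa3 UMIs 70.9% were called G1, against 33.4% of those with none, and the part of phase in the Gpx3 value was not tested.

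Spread from cell to cell was read as the variance over the mean of UMIs at 5000 UMIs per cell, which is near 1 for counting alone. It was highest for Prdx5, at 1.95 in vehicle and 2.62 in retinoic acid cells, and above 1.7 for Gpx1 in both. Sod1, Cat, Prdx2 and Prdx3 lay between 1.04 and 1.08 in both libraries. Gpx3 was at 1.009 and 1.11. Low means leave little room for excess spread: Sod1 averaged 0.282 UMIs in a vehicle cell and 0.127 UMIs in a retinoic acid cell.

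Other enzymes of peroxide and superoxide removal were mostly low. Sod3, the extracellular superoxide dismutase, had 22.9 CPM with vehicle and 0.309 CPM with retinoic acid, 73.2-fold lower (log2 ratio −6.19, −6.75 to −5.73), and was the 1 of 3 genes compared in this list past 2-fold, beside 5.05% of all genes lower. Sod3 reached 20 CPM only with vehicle, so it could only be called lower. The mitochondrial Sod2 was at 143 and 108 CPM, and Ccs, the copper chaperone of SOD1, at 36.7 and 29.3 CPM. Prdx4, the peroxiredoxin of the endoplasmic reticulum, lies under the 20 CPM limit and is named after its values were seen; it had 1680 counts in the vehicle and 168 counts in the retinoic acid library. Gpx6, Gpx7 and Gpx8, also named after their values were seen, had 0 counts in both libraries, which allows up to 0.0303 CPM with vehicle and 0.0273 CPM with retinoic acid.

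Of 22 thioredoxin and glutathione genes compared, 2 were at least 2-fold higher and 2 lower with retinoic acid, beside 3.03% and 5.05% of all genes, and the list's median log2 ratio was 0.00. Mgst2 and Gstm1, which encode glutathione transferases, were 2.40-fold and 2.01-fold higher, and Gsta4 and Mgst3 were 4.42-fold and 4.35-fold lower. Gsta4 (27.6 and 6.23 CPM) and Mgst3 (42.7 and 9.81 CPM) reached 20 CPM only with vehicle, so they could only be called lower. Gsr, the glutathione reductase that recharges glutathione, was at 536 and 811 CPM, and G6pdx, whose enzyme supplies NADPH, at 46.5 and 81.4 CPM. Both were higher again from the lowest to the highest granule quartile, by log2 ratios of 0.81 and 1.17. The genes Mgst1 (1.84), Msrb1 (1.23) and G6pdx were the 3 of 20 genes of the list that were at least 2-fold higher in the highest quartile, beside 5.25% of all genes, and none was 2-fold lower. Mgst1 had the other direction between the libraries, at 255 CPM with vehicle and 190 CPM with retinoic acid. Gstm1, higher with retinoic acid, was lower along the share, at 946 CPM in the lowest and 547 CPM in the highest quartile. Txn1, the cytosolic thioredoxin, was at 661 and 784 CPM between the libraries, and at 859 and 732 CPM in the lowest and highest quartile.

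NRF2 itself, encoded by Nfe2l2, was nearly level between the libraries at 55.5 and 59.0 CPM, but went from 50.5 CPM in the lowest to 85.5 CPM in the highest granule quartile, a log2 ratio of 0.76 (0.65 to 0.86). Its inhibitor Keap1 was at 52.2 and 53.5 CPM in the libraries. Of 7 genes of that list compared between the libraries, Fth1, the ferritin heavy chain, was the 1 past 2-fold, downward (5.05% of all genes), at 2854 CPM in the vehicle and 1086 CPM with retinoic acid. Along the granule share Mafg, a small Maf partner of NRF2, was at 34.2 CPM in the lowest and 87.0 CPM in the highest quartile, and was the 1 of 9 past 2-fold, upward (5.25% of all genes). The list's median log2 ratio along the share was 0.36, which is the value of Bach1, beside −0.18 over all genes compared. Of the list 7 of 9 were positive, beside 1990 of the 5635 genes compared. Bach1 (18.7 and 23.9 CPM) and Nqo1 (14.9 and 20.1 CPM) reached 20 CPM only in the highest quartile. The limit thus fixed their sign, and no direction of the list is read from the median or the count. Gclm, which encodes the modifier subunit of the first enzyme of glutathione synthesis, was at 442 and 309 CPM between the libraries.

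In the selenoprotein list, 13 genes were compared and 2 were at least 2-fold lower with retinoic acid, beside 5.05% of all genes. These were Selenom, at 406 and 169 CPM, and Pstk, a kinase of selenocysteine synthesis, at 41.7 and 20.8 CPM, whose log2 ratio of −1.01 the TMM shift of 0.08 takes inside the limit. None was 2-fold higher. Selenom and Selenoh were the 2 of 15 at least 2-fold lower along the granule share, beside 4.99% of all genes, with log2 ratios of −1.28 and −1.02. Gpx1 and Gpx4, selenoproteins too, were level and higher over the same contrasts. Gpx3, also a selenoprotein, was 8.48-fold higher with retinoic acid and had a log2 ratio of −0.02 along the share.

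For the oxidase that makes superoxide, 3 of 5 subunit genes compared were at least 2-fold higher with retinoic acid, Ncf1, Ncf4 and Rac2, beside 3.03% of all genes. Along the granule share 4 of 6 were, these 3 and Cybb, beside 5.25%. Rac2 was at 513 and 1067 CPM, and Cybb, the catalytic subunit gene, at 0.285 CPM in the lowest and 80.4 CPM in the highest quartile. All 6 subunit genes were higher in the highest quartile, beside 1990 of the 5635 genes compared. Between the libraries Ncf1, at 8.47 and 99.9 CPM, reached 20 CPM only with retinoic acid. Along the share Cybb reached it only in the highest quartile. In those comparisons the 2 genes could therefore only be called higher. In the highest quartile Prdx5 and Gpx4 were higher and Prdx1, Sod1 and Sod2 lower. Sod2 was at 122 CPM in the lowest and 87.9 CPM in the highest quartile.

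**Figure D5:**
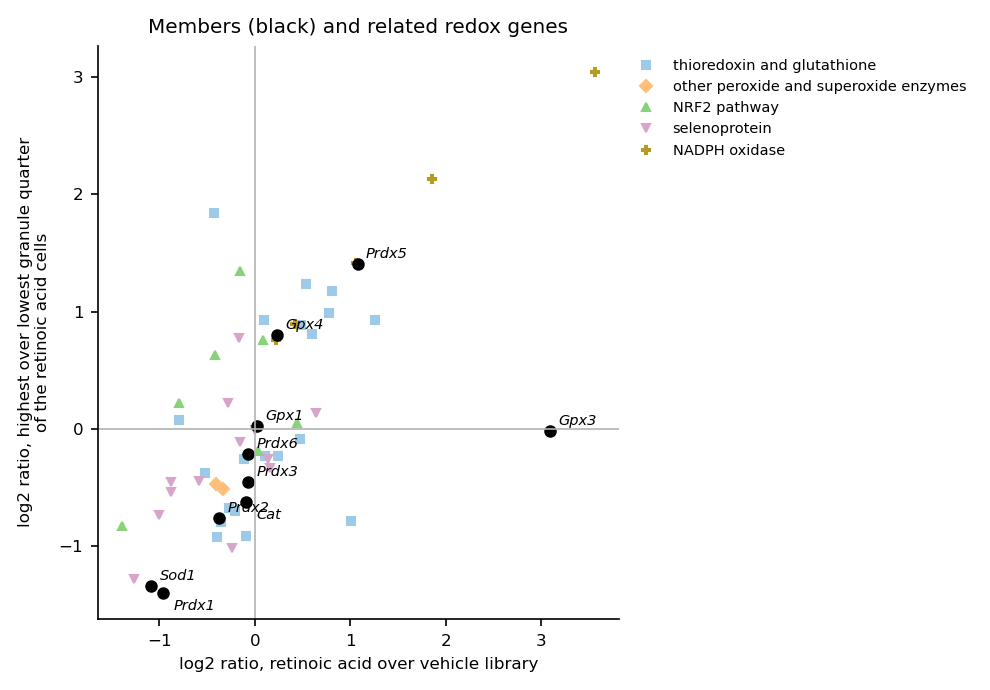
Log2 ratio of retinoic acid over vehicle (horizontal axis) against log2 ratio of the highest over the lowest granule quartile of retinoic acid cells (vertical axis) for the 10 members (black, named) and the related genes compared in both ways (coloured by list). Prdx5 lies at 1.08 and 1.40, Prdx1 and Sod1 lie low on both axes, and Gpx3 lies at 3.08 on the horizontal axis and −0.02 on the vertical.

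The 2 comparisons share the retinoic acid cells, so a gene's place on both axes is not independent evidence. Over the 10 deciles of retinoic acid cells, the log2 levels of Prdx5 and Gpx4 had a Pearson r of 0.99 and those of Prdx1 and Sod1 of 0.98, whereas Prdx1 and Prdx5 had −0.99. These points come from 1 library ordered by 1 measure and differ in depth, so the values only describe the curves. Over 20 groups, the deciles of both libraries, the genes with the pattern most like that of Gpx3, the member with the largest excess under retinoic acid, were Rbx1, Elane and Atp5e, with r of 0.99 each, among 2958 genes with at least 50 CPM. For Sod1, with the largest shortfall, they were Nme2, Prrc1 and Dab2, with r of 0.99 each. Such values are set largely by the difference between the libraries, which all 20 groups share.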

How the data were processed

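The deposited files hold raw UMI counts per gene and cell for 1 vehicle and 1 retinoic acid library, made with Cell Ranger, for which the submitters' processing notes give version 4.0.0 and the builds mm10 and GRCm38.p4. The gene annotation and how empty droplets were set aside are not given in the sources used here. Coordinates come from GENCODE M21 (GRCm38), matched by gene identifier, and promoters from the RefSeq table.

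Cells with at least 1000 UMIs, 500 genes and at most 10% mitochondrial UMIs were kept, which removed 310 vehicle and 276 retinoic acid barcodes. Scrublet called 2 and 5 doublets, so few that the caller is taken not to have worked, so none was removed. Counts were summed over cells, and ratios had 0.5 counts added to each sum. Ratio intervals are exact binomial, levels exact Poisson and shares of cells exact binomial (Clopper-Pearson), all at 95%. For measures per cell, 5282 vehicle and 6659 retinoic acid cells were thinned to 5000 UMIs, leaving out 194 and 481 shallower cells. The granule list was Camp, Ngp, Ltf, Lcn2, Chil3, Mmp8, Mmp9, Hp, Pglyrp1, Cd177 and Wfdc21. Phases were called with scanpy 1.11.5 over genes found in at least 20 cells. TMM factors came from edgeR 4.0.16. Related genes named are those 2-fold different in either comparison, and others that reached 20 CPM in a library or quartile, with Prdx4, Gpx6, Gpx7 and Gpx8 added after their values were seen; the 3 genes of most like pattern are named for Gpx3 and Sod1. The members and lists were chosen with earlier results of these data known. The calculation was tested on simulated data.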

Additional observations from a re-analysis of the deposited data

How the results depend on the processing

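Counts of members past 2-fold held within 1.5 times under most alternatives. Between the libraries 3 members passed, 4 at a limit of 1.5-fold and 1 among cells of 0.1 to 0.5% granule share. Along the share 3 passed, with 5 in the highest against the lowest decile and 6 at a limit of 1.5-fold. The members' median log2 ratio between the libraries of −0.07 was −0.019 outside the granule list, −0.12 with equal weight for every cell and −0.10 at the vehicle phase shares. It reversed to 0.0082 with TMM scaling and 0.0060 among cells of 0.1 to 0.5% share. Along the share the median of −0.33 was −0.51 as CPM of all UMIs, −0.62 in deciles, −0.70 in G1 cells and −0.38 with equal weight.

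TMM scaling turned Prdx3 to 0.0091 and Prdx6 to 0.0072. Among cells of 0.1 to 0.5% share, as CPM of all UMIs, Prdx2 turned to 0.0019, Prdx3 to 0.14, Prdx6 to 0.010, Gpx1 to −0.11, Gpx4 to −0.046 and Cat to 0.19. Along the share Gpx1 turned to −0.16 as CPM of all UMIs, −0.095 in deciles, −0.0039 at 3000 UMIs, −0.15 in G1 cells and −0.030 with equal weight. Prdx1, Prdx5, Gpx3 and Sod1 kept their direction between the libraries under all 9 alternatives, of which 1 is a range of granule share. In the ranges of 0.5 to 2% and 2 to 8%, which are not among the 9, Prdx5 was at −0.02 and −0.09. Restriction to S or G2/M cells was chosen after seeing the data. The cause of these shifts was not tested. Depth limits the shares of cells with a UMI: the difference for Prdx5 was 5.11 points at 5000 UMIs, 14.0 at 3000 UMIs and 0.262 without thinning. The calls of S against G2/M depend on the control genes of the score. No paired analysis was possible because there was just 1 library on either side.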
